A study of Mus musculus with 9 samples.

Results

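The genes described here encode the machinery that brings proteins into mitochondria, folds them there and degrades them: 28 genes of the import channels and their motor, 3 folding chaperones, and 8 genes that comprise the proteases and the prohibitin scaffold Phb2. They were taken as the rows carrying these 39 gene symbols among the 56691 genes of each of 9 RNA-seq count files, and all 39 were among the 16903 genes that passed the filter on low counts. The libraries came from mouse BVSC pluripotent stem cells (PSCs), a line carrying the reporters Blimp1-mVenus (BV) and Stella-CFP (SC), which were differentiated as embryoid bodies and sorted on day 5 by BV into BV+ primordial germ cell-like cells (PGCLCs) and BV- somatic cells. The cells had received by lentivirus the doxycycline-inducible p20 vector, either with mouse Nrf1 cDNA (NRF1 OE) or empty (Ctrl), and both kinds were given 1.5 μg/mL doxycycline from day 2 to 5, so the Ctrl cells share the vector and the drug. There were 2 libraries of BV+ cells with NRF1 OE, 2 of BV+ cells with Ctrl, 3 of BV- cells with NRF1 OE and 2 of BV- cells with Ctrl. Transgene-carrying cells were selected with a drug, with no cloning step described, and the study calls its RNA-seq replicates biological without saying what separated them, so the p-values measure the spread between these libraries, which may in part be technical.

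Nearly all mitochondrial proteins are made in the cytosol and enter through the TOM complex of the outer membrane. From there the SAM complex inserts beta-barrel proteins, the small TIM chaperones carry hydrophobic precursors across the intermembrane space to the TIM22 carrier translocase, and the TIM23 complex with its Hsp70 motor pulls presequence proteins into the matrix. Hsp60 with its lid Hsp10 folds what arrives, and LONP1, ClpXP and the AAA proteases of the inner membrane remove what is damaged or in excess. NRF1 is a transcription factor known for binding GC-rich promoters of nuclear genes for mitochondrial proteins, several import genes among them.

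The libraries held 13702162 to 19625460 counts, and the 39 genes took 0.557% to 0.642% of them. Nrf1 itself, the gene that was overexpressed, was at 91.1 and 90.4 CPM (counts scaled to equal library size with TMM factors) in BV+ Ctrl and at 95.7 and 99.4 in BV+ NRF1 OE. In BV- cells Nrf1 was at 99.1 and 105 CPM with Ctrl and at 119, 122 and 126 with NRF1 OE. Every NRF1 OE library was above every Ctrl library of its population, but the differences of 0.10 ± 0.10 (SE) and 0.26 ± 0.10 on the log2 scale had edgeR adjusted p of 0.489 and 0.0718, so the counts of Nrf1 did not pass the test in either population. Of 8 PGC markers, Prdm1 (Blimp1), the gene behind the sort reporter, differed by 0.05 ± 0.17 (log2, SE) between BV+ and BV- cells with Ctrl, and no PGC marker passed the test there (median of the 8, -0.11; 3 with an unadjusted p under 0.05). The vascular receptor Kdr and the neural filament gene Nes were higher in BV+ cells with Ctrl, by 1.75 ± 0.27 and 1.94 ± 0.30. Each was the 1 call in its list (all genes, 1.10% higher). Of 5 tested mesoderm markers 4 had positive differences and 1 a negative one, and of 7 tested neuroectoderm markers 5 and 2. Of 8 endoderm markers 7 had negative differences, and 0 passed. The differences of the 8 PGC markers with Ctrl ran from -0.52 to 0.70, with a smallest edgeR adjusted p of 0.0577. With NRF1 OE 1 of the 8 was higher and 3 were lower in BV+ at an adjusted p under 0.05 (all genes, 9.90% and 3.85%). As a set the PGC markers thus went both ways and do not bear out the label of the sorted BV+ cells in these few libraries. BV+ and BV- are used below as names of the sorts.

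The promoter windows of RefSeq (GRCm38.p6, 250 bases before to 50 after the annotated start, a different build from the GRCm39 of the counts) were available for all but Tomm7, Timm21, Hspa9 and Afg3l2, as 38 windows of 35 genes. The NRF1 core motif GCGCNTGCG, searched on both strands, stood in a window of 9 of the 35 genes (25.7%), against 7.12% of 27025 genes and 9.68% of 17491 protein-coding genes of the table. The stricter form GCGCATGCG, which the first motif includes, stood in Timm13 and Clpx (5.71% of the 35 genes, against 1.95% of all genes and 2.61% of protein-coding genes). The 9 holders were Clpx, Hspd1, Oma1, Pam16, Spg7, Timm13, Timm50, Timm8b and Tomm20. Shown here are the windows of the holders that passed the test with NRF1 OE in BV+ or BV- cells, with the motif on either strand in capitals.
Timm8b, chr9:50603651-50603950, plus strand: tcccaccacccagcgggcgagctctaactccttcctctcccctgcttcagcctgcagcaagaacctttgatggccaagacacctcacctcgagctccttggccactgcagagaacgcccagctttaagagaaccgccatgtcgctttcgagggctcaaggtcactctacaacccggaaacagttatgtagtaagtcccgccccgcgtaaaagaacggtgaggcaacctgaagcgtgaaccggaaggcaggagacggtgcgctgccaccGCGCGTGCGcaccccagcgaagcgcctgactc
Timm13, chr10:80900920-80901219, minus strand: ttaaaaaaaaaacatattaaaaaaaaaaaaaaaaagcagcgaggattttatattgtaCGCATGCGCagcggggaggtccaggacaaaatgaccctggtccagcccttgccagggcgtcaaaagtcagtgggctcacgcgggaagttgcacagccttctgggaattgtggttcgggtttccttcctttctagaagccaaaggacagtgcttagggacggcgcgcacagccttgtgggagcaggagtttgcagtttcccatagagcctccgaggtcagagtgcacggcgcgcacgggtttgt
Timm50, chr7:28311997-28312296, minus strand: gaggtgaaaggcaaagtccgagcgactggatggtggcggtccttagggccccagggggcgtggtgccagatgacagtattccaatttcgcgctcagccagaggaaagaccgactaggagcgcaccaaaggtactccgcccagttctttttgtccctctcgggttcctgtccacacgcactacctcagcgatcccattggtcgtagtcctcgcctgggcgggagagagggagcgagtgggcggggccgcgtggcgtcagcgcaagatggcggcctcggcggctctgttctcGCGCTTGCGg
Tomm20, chr8:126945872-126946171, minus strand: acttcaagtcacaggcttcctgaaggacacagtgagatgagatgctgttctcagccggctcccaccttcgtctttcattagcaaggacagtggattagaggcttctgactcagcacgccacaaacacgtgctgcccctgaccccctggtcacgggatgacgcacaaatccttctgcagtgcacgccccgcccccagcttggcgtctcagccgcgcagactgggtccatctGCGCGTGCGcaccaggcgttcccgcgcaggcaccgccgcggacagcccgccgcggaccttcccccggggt
Hspd1, chr1:55088194-55088493, minus strand: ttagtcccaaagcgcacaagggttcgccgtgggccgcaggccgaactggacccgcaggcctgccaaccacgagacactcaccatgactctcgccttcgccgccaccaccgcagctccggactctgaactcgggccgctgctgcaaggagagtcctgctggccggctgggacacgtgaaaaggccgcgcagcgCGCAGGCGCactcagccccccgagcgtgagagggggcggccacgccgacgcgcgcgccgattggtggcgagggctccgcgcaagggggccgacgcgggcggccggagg

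The motif began 193 bases before the start site in Timm13, 58 before the second annotated start of Hspd1 and 20 before that of Tomm20, and it began at base 19 after the start in Timm8b and at base 41 in Timm50. It stood in windows of genes that rose and of Hspd1, which fell. In BV- cells the 9 holders had a median log2 fold change with NRF1 OE of 0.23 (range -0.51 to 0.70, 5 positive), and the 26 genes with a window but no motif had a median of 0.27 (range -0.69 to 0.56, 20 positive). In BV+ cells the medians were 0.07 for the 9 holders (6 positive) and 0.16 for the 26 others (22 positive). A match of letters is a description of the window and not a bound site.

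With NRF1 OE, the genes that passed the test in BV- cells were Tomm20, Tomm40, Tomm5, Samm50, Mtx1, Timm13, Timm22, Timm17b, Timm50, Clpp and Phb2, at 1.25-fold to 1.62-fold of their Ctrl level, and Hspa9, Hspd1 and Timm21, at 0.699 to 0.748 of it. In BV- cells 11 of the 39 genes rose (28.2%, against 10.2% of all 16903 genes tested) and 3 fell (7.69%, against 6.98% of all genes) at an adjusted p under 0.05 in edgeR's quasi-likelihood test with Benjamini-Hochberg adjustment over all genes. In BV+ cells 2 rose, Timm8b and Timm17b (5.13%, against 6.24% of all genes), and 0 fell (against 1.78%), with 3 rises and 0 falls by DESeq2. At an unadjusted p under 0.05 there were 12 genes with a positive difference (all genes, 20.3%) and 3 with a negative one (all genes, 12.1%). By the adjusted p, the share of the list that rose in BV+ cells was thus near that of all genes. The unadjusted count, 12 of 39 against 20.3% of all genes, was above it. The study's own rule asks for a log2 change beyond 0.58 in either direction and an unadjusted p under 0.05. By it 2 genes passed in BV+ (against 17.0% of all genes), again Timm8b and Timm17b, and 2 in BV- (against 16.0%), Timm13 upwards and Yme1l1 downwards. The median log2 fold change of the 39 genes was 0.11 in BV+ and 0.24 in BV-, beside 0.04 and 0.01 over all genes tested.

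Read library by library, 22 of the 39 genes were higher in both BV+ NRF1 OE libraries than in both BV+ Ctrl libraries and 7 were lower in both (all genes, 38.1% and 32.0%). In BV- cells 26 were higher in all 3 NRF1 OE libraries than in both Ctrl libraries and 7 were lower (all genes, 29.4% and 27.6%). The calls rest on few libraries and lie close to the threshold, with the smallest adjusted p among the 39 at 0.0317 in BV- and 0.033 in BV+. In BV- the 14 calls became 24 without BV- NRF1 OE replicate 1, 8 without replicate 2 and 0 without replicate 3, and 0 without any 1 of the 4 Ctrl libraries. Fitted on the 5 BV- libraries alone, none of the 39 was called, with library sizes in place of TMM factors 8 rose and 5 fell, and with the replicate number as a block 0 were called in either population. In BV+ the 2 calls became 0 without BV+ NRF1 OE replicate 1, BV- NRF1 OE replicate 3, either BV+ Ctrl library or BV- Ctrl replicate 1, became 5 without BV+ NRF1 OE replicate 2 or BV- NRF1 OE replicate 1, and became 12 without BV- NRF1 OE replicate 2. Many calls also changed when transcript GC content was taken into account, and values given below with the offsets come from the same fit with offsets for GC content and length in every library.

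**Figure D1:**
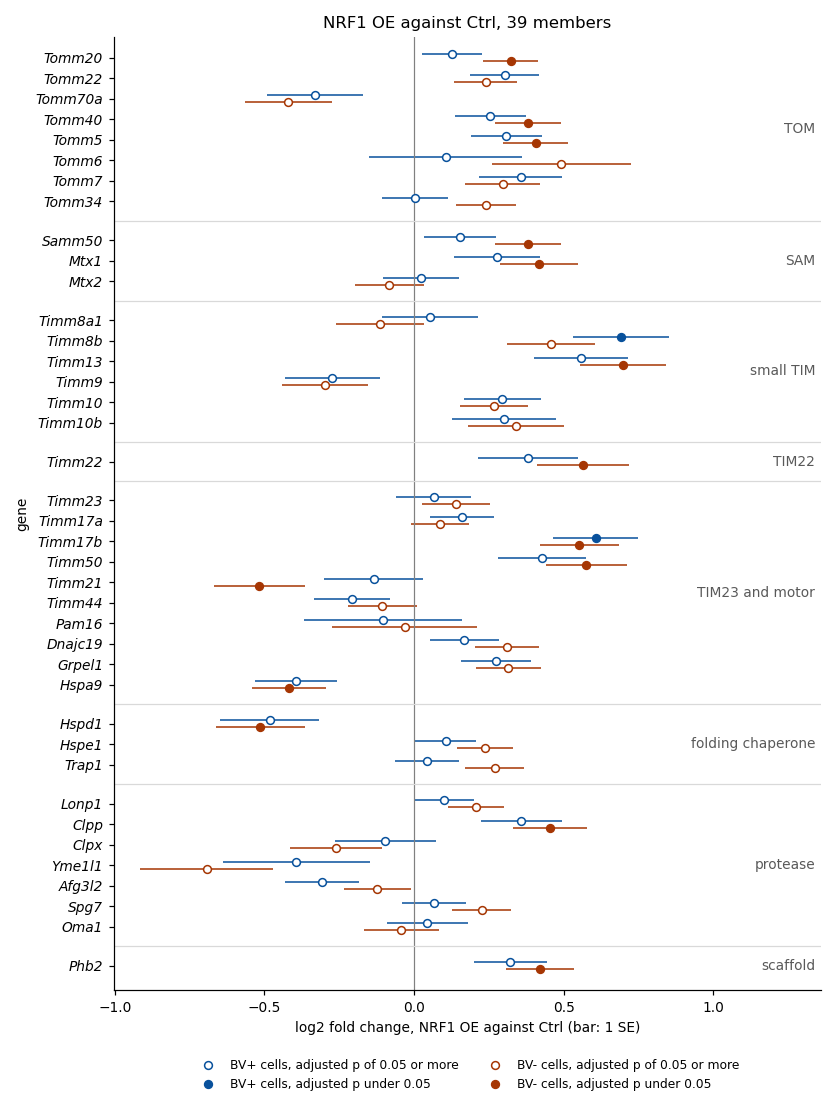
Log2 fold change with NRF1 OE against Ctrl for the 39 genes, grouped by complex, in BV+ cells (blue) and BV- cells (brown), with bars of 1 SE and filled points for adjusted p under 0.05. Timm8b and Timm17b are filled in BV+, and 14 genes are filled in BV-, with Timm21, Hspa9 and Hspd1 on the lower side.

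The TOM group is the entry gate, with the cytosolic co-chaperone Tomm34 counted in. It had positive differences in 7 of 8 genes in each population (all genes, 8919 of 16903 in BV+ and 8569 in BV-). Tomm34, at 0.0026 in BV+, is among those 7. In BV- 3 of 8 passed the test, all higher (all genes, 10.2%). Tomm20, the receptor for presequences, was at 426 and 412 CPM in BV+ Ctrl and 466 and 449 in BV+ NRF1 OE. In BV- cells Tomm20 was at 431 and 454 CPM with Ctrl and 522, 588 and 551 with NRF1 OE. Tomm40, the pore itself, was at 203 and 197 CPM in BV+ Ctrl and 245 and 233 in BV+ NRF1 OE. In BV- cells Tomm40 was at 228 and 245 CPM with Ctrl and 269, 334 and 321 with NRF1 OE. For both genes the NRF1 OE and Ctrl libraries of a population did not overlap. Tomm20 rose 1.25-fold in BV- (log2 0.32 ± 0.09 SE, edgeR adjusted p = 0.0405) and Tomm40 rose 1.30-fold (0.38 ± 0.11, adjusted p = 0.0411). With the offsets the difference in BV- was 0.68 for Tomm20, which still passed, and 0.10 for Tomm40, which did not (adjusted p = 0.370). In BV+ their log2 differences were 0.13 ± 0.10 and 0.26 ± 0.12 (adjusted p = 0.378 and 0.161).

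Tomm5, a small subunit of the pore, was at 68.2 and 68.7 CPM in BV+ Ctrl and 90.9 and 78.5 in BV+ NRF1 OE. In BV- cells Tomm5 was at 79.9 and 84.9 CPM with Ctrl and 102, 112 and 114 with NRF1 OE. It rose by 0.41 ± 0.11 (log2, SE) in BV- (edgeR adjusted p = 0.0372) and differed by 0.31 ± 0.12 in BV+ (adjusted p = 0.108). Tomm22, the central receptor that holds the complex together, was at 106 and 102 CPM in BV+ Ctrl and 132 and 125 in BV+ NRF1 OE. In BV- cells Tomm22 was at 112 and 127 CPM with Ctrl and 137, 152 and 134 with NRF1 OE. Its groups did not overlap in either population, but its differences of 0.30 ± 0.11 and 0.24 ± 0.10 did not pass (adjusted p = 0.103 and 0.114), though with the offsets that in BV+ did (0.39, adjusted p = 0.0461). Tomm70a, the receptor that takes carrier precursors from cytosolic chaperones, stood on the other side, at 351 and 356 CPM in BV+ Ctrl and 265 and 297 in BV+ NRF1 OE, and at 358 and 350.1 in BV- Ctrl and 317, 208 and 268 in BV- NRF1 OE. All 5 of its NRF1 OE libraries were below all 4 Ctrl libraries, with differences of -0.33 ± 0.16 and -0.42 ± 0.15 (adjusted p = 0.175 and 0.0625), but with the offsets these came to -0.01 in BV+ and turned to 0.13 in BV-. Tomm6, the subunit with the lowest counts, was at 2.88 and 3.30 CPM in BV+ Ctrl and 3.04 and 3.65 in BV+ NRF1 OE. Its exons overlap those of Gm21981 on the same strand, and what this did to its counts was not tested. In BV- cells Tomm6 was at 2.65 and 3.79 CPM with Ctrl and 4.15, 4.35 and 5.15 with NRF1 OE, where its differences were not resolved (0.11 ± 0.26 and 0.49 ± 0.23). Tomm7 and the cytosolic co-chaperone Tomm34 had differences between 0.00 and 0.36 in the populations, none of which passed without the offsets. Under the offsets Tomm7 passed in BV- (0.52, adjusted p = 0.0462) and was at 0.49 in BV+ (adjusted p = 0.0510). Tomm34 turned negative under them and passed in BV+ (-0.30, adjusted p = 0.0477), at -0.11 in BV-.

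In the SAM complex, which builds beta-barrel proteins such as Tomm40 into the outer membrane, the pore Samm50 was at 219.6 and 215 CPM in BV+ Ctrl and 250.3 and 233 in BV+ NRF1 OE. In BV- cells Samm50 was at 226 and 237 CPM with Ctrl and 268, 336 and 299 with NRF1 OE, a rise of 1.30-fold (log2 0.38 ± 0.11 SE, edgeR adjusted p = 0.0411; 0.28 with the offsets, adjusted p = 0.0506). Its metaxin partner Mtx1 was at 51.4 and 48.6 CPM in BV+ Ctrl, 66.8 and 54.3 in BV+ NRF1 OE, 46.6 and 50.5 in BV- Ctrl, and 57.4, 70.5 and 66.7 in BV- NRF1 OE. Mtx1 passed in BV- just under the threshold (0.42 ± 0.13, adjusted p = 0.0498), but its sign turned with the offsets (-0.05 in BV- and -0.19 in BV+), and its exons overlap those of Thbs3 on the other strand. The other metaxin, Mtx2, overlapped between the groups in both populations (0.02 in BV+ and -0.08 in BV-).

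The small TIMs, chaperones of the intermembrane space, held the largest rises of the list without the offsets. Timm8b was at 39.1 and 37.2 CPM in BV+ Ctrl and 71.4 and 51.8 in BV+ NRF1 OE. In BV- cells Timm8b was at 39.2 and 43.4 CPM with Ctrl and 55.3, 62.8 and 52.2 with NRF1 OE. Timm13 was at 54.0 and 53.4 CPM in BV+ Ctrl and 87.6 and 70.4 in BV+ NRF1 OE. In BV- cells Timm13 was at 54.7 and 63.0 CPM with Ctrl and 83.7, 110.5 and 92.6 with NRF1 OE. Every NRF1 OE library of both genes lay above every Ctrl library of either population. Timm8b rose 1.61-fold in BV+ (log2 0.69 ± 0.16 SE, edgeR adjusted p = 0.033) and differed by 0.46 ± 0.15 in BV- (adjusted p = 0.0526). Timm13 rose 1.62-fold in BV- (0.70 ± 0.15, adjusted p = 0.0317) and differed by 0.56 ± 0.16 in BV+ (adjusted p = 0.051). With the offsets Timm8b was at 0.54 in BV+, which still passed, and 0.31 in BV-, and Timm13 was at 0.24 in BV- (adjusted p = 0.0701) and 0.13 in BV+. The assembly partner of Timm13, Timm8a1, did not pass the test in either population, and its libraries overlapped in both populations, between 14.5 and 18.9 CPM. The other partner pair was split as well, since the Ctrl libraries of each population lay below its NRF1 OE libraries for Timm10 (15.7 and 15.7 CPM in BV+ Ctrl, 18.8 and 19.8 in BV+ NRF1 OE, 21.0 and 21.7 in BV- Ctrl, and 26.4, 24.8 and 26 in BV- NRF1 OE) and above them for Timm9, with none of these differences passing the test. With the offsets that split was gone, Timm10 being at 0.04 in BV+ and -0.01 in BV- and Timm9 at -0.07 and -0.0015. Timm10b, bound to the carrier translocase, had low counts in all 9 libraries, and its differences of 0.30 ± 0.17 and 0.34 ± 0.16 did not pass. Its exons overlap those of Gm45799 on the same strand.

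Timm22, the channel that inserts carrier proteins, was at 29.8 and 25.1 CPM in BV+ Ctrl and 39.9 and 31.5 in BV+ NRF1 OE. In BV- cells Timm22 was at 26.8 and 27.8 CPM with Ctrl and 36.0, 46.7 and 38.6 with NRF1 OE. It rose 1.48-fold in BV- (log2 0.56 ± 0.15 SE, edgeR adjusted p = 0.0383) and differed by 0.38 ± 0.17 in BV+ (adjusted p = 0.140). Timm23, the channel for presequence proteins, differed little: 22.9 and 22.5 CPM in BV+ Ctrl, 25.0 and 22.5 in BV+ NRF1 OE, 24.3 and 25.1 in BV- Ctrl, and 27.7, 27.5 and 26.5 in BV- NRF1 OE, which are log2 differences of 0.07 ± 0.13 and 0.14 ± 0.11 (adjusted p = 0.735 and 0.386). Of the paralogous channel partners of Timm23, Timm17b was at 27.4 and 27.3 CPM in BV+ Ctrl and 45.6 and 37.7 in BV+ NRF1 OE. In BV- cells Timm17b was at 29.3 and 30.3 CPM with Ctrl and 39.1, 48.0 and 44.2 with NRF1 OE. Timm17b rose 1.52-fold in BV+ (0.61 ± 0.14, adjusted p = 0.0336) and 1.47-fold in BV- (0.55 ± 0.13, adjusted p = 0.0319), the only gene of the 39 called in both populations. Timm17a, the other paralog, differed by 0.16 ± 0.11 and 0.09 ± 0.10. In FPKM, Timm17b stood at 1.22 to 1.26 times Timm17a in the 4 Ctrl libraries and at 1.50 to 1.89 times in the 5 NRF1 OE libraries. This difference between the paralogs was not there with the offsets, where Timm17a was at 0.45 in BV+ and 0.62 in BV- and Timm17b at 0.47 and 0.37.

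Timm50, the receptor that meets presequences at the TIM23 channel, was at 94.0 and 81.8 CPM in BV+ Ctrl and 129 and 108 in BV+ NRF1 OE. In BV- cells Timm50 was at 102 and 103 CPM with Ctrl and 132, 175 and 154 with NRF1 OE. It rose 1.49-fold in BV- (log2 0.58 ± 0.14 SE, edgeR adjusted p = 0.0317) and differed by 0.43 ± 0.15 in BV+ (adjusted p = 0.0838), but with the offsets the differences were 0.12 in BV- (adjusted p = 0.318) and 0.01 in BV+. Timm21, which links the channel to TOM, was at 13.8 and 15.5 CPM in BV+ Ctrl and 14.0 and 12.7 in BV+ NRF1 OE, where the groups overlapped, and at 15.9 and 15.0 in BV- Ctrl and 12.6, 9.72 and 9.95 in BV- NRF1 OE. It fell in BV- by 0.52 on the log2 scale (± 0.15 SE, adjusted p = 0.0437), which was -0.14 with the offsets. Timm44, which tethers Hsp70 to the channel, was at 98.3 and 92.4 CPM in BV+ Ctrl and 76.1 and 89.1 in BV+ NRF1 OE. In BV- cells Timm44 was at 102 and 97.1 CPM with Ctrl and 97.6, 82.8 and 97.4 with NRF1 OE. Its groups overlapped in BV-, and its differences of -0.21 ± 0.13 and -0.11 ± 0.12 did not pass (adjusted p = 0.270 and 0.527). The co-chaperones of the motor, Dnajc19 and Grpel1, were higher in every NRF1 OE library of their population by 0.17 to 0.31 without passing. Under the offsets both passed in BV- (0.73, adjusted p = 0.0270, and 0.46, adjusted p = 0.0330) but not in BV+ (0.43 and 0.37). The regulator Pam16 was too low to resolve, at 3.41 and 4.56 CPM in BV+ Ctrl and 3.86 and 3.59 in BV+ NRF1 OE. In BV- cells Pam16 was at 3.03 and 4.86 CPM with Ctrl and 3.73, 3.76 and 4.15 with NRF1 OE.

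Hspa9, the matrix Hsp70 that drives the motor and is counted with TIM23, and Hspd1, the matrix Hsp60, stood lower with NRF1 OE in both populations. Hspa9 was at 849 and 808 CPM in BV+ Ctrl and 564 and 696 in BV+ NRF1 OE. In BV- cells Hspa9 was at 858 and 871 CPM with Ctrl and 725, 554 and 661 with NRF1 OE. Hspd1 was at 1187 and 1198 CPM in BV+ Ctrl and 759 and 948 in BV+ NRF1 OE. In BV- cells Hspd1 was at 1305 and 1181 CPM with Ctrl and 1002, 682 and 929 with NRF1 OE. For each gene all 5 NRF1 OE libraries were below all 4 Ctrl libraries. In BV- Hspd1 fell to 0.701 of Ctrl (log2 -0.51 ± 0.15 SE, edgeR adjusted p = 0.0427) and Hspa9 to 0.748 (-0.42 ± 0.12, adjusted p = 0.0437). In BV+ the differences were about as large, -0.48 ± 0.17 and -0.40 ± 0.14, and did not pass (adjusted p = 0.0838 and 0.0847). With the offsets Hspd1 was at -0.41 in both populations and passed in both (adjusted p = 0.0446 in BV+ and 0.0440 in BV-), while Hspa9 was at -0.23 in BV- (adjusted p = 0.0879) and -0.27 in BV+. Hspd1 and Hspa9 were the most and the third most abundant of the 39 genes per length (means of 387 and 170 FPKM). The summed CPM of Hspd1, Hspe1 and Trap1, the 3 folding chaperones apart from the import motor, was 1760 to 1771 in BV+ Ctrl and 1379 to 1536 in BV+ NRF1 OE, and 1818 to 1909 and 1460 to 1712 in the BV- groups. That sum follows Hspd1 and does not describe the 3 genes. Hspe1 and Trap1 had positive differences in both populations (0.11 and 0.04 in BV+, 0.24 and 0.27 in BV-).

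Hspe1, the Hsp10 lid of Hsp60, did not fall with it. It was at 313 and 314 CPM in BV+ Ctrl and 355 and 319.8 in BV+ NRF1 OE, and at 336 and 353 in BV- Ctrl and 404, 426 and 388 in BV- NRF1 OE, which are log2 differences of 0.11 ± 0.10 (SE) and 0.24 ± 0.09 (edgeR adjusted p = 0.481 and 0.0889). Under the offsets Hspe1 passed in BV- (0.37, adjusted p = 0.0422) and was at 0.18 in BV+ (adjusted p = 0.263). The genes lie head to head, with annotated starts of Hspe1 and of the first Hspd1 transcript 216 bases apart. The promoter windows of these starts share 285 bases (chr1:55087898-55088182, GRCm38.p6). The second Hspd1 start is 95 bases from the Hspe1 start, and its window shares 4 bases with that of Hspe1. The motif of Hspd1 stands in the window of this second start, and the window of the first holds none. The window of Hspe1, shown because Hspd1 is read from the same stretch in the other direction, holds no GCGCNTGCG.
Hspe1, chr1:55087898-55088197, plus strand: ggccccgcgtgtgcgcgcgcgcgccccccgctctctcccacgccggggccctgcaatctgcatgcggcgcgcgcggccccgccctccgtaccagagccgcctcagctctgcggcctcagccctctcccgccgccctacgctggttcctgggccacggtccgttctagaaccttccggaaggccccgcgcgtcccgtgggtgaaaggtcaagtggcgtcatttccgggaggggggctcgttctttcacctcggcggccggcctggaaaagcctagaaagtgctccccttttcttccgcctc

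In FPKM the ratio of Hspd1 to Hspe1 was 2.12 and 2.13 in BV+ Ctrl, 1.19 and 1.65 in BV+ NRF1 OE, 2.17 and 1.87 in BV- Ctrl, and 1.39, 0.893 and 1.34 in BV- NRF1 OE. Every NRF1 OE library was thus below every Ctrl library in this ratio. A near-identical copy of Hspd1, Hspd1-ps3, drew 3.52% to 4.94% of the counts of the pair, so a share of the reads of Hspd1 may sit on its copy. The counts of Hspd1-ps3 differed in the same direction as Hspd1 in BV-, by -0.65 ± 0.19 (edgeR adjusted p = 0.0411). The exons of Hspd1 and Hspe1 overlap on opposite strands, and whether the counting used strand is not given in the sources used here. Trap1, the mitochondrial Hsp90, overlapped between the groups in BV+ (248 to 269.9 CPM) and was higher in every NRF1 OE library of BV- (0.27 ± 0.10, adjusted p = 0.0712; 0.06 with the offsets).

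**Figure D2:**
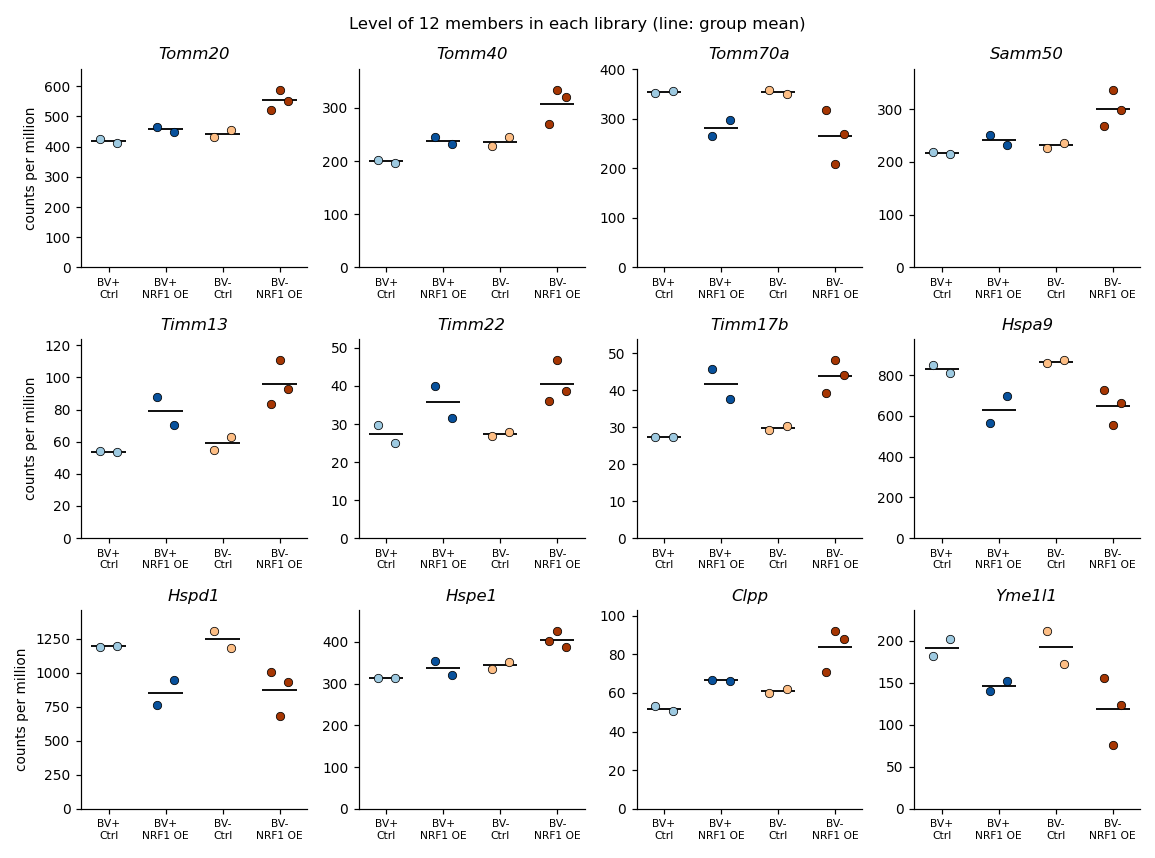
CPM (TMM-scaled, axes from 0) of 12 genes in each of the 9 libraries, by group, with a line at each group mean. The NRF1 OE libraries lie above the Ctrl libraries of their population for Tomm20, Tomm40, Samm50, Timm13, Timm22, Timm17b, Hspe1 and Clpp, and below them for Tomm70a, Hspa9, Hspd1 and Yme1l1.

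The proteases were divided. Clpp, the proteolytic chamber of the matrix protease ClpXP, was at 53.2 and 50.5 CPM in BV+ Ctrl and 66.7 and 66.3 in BV+ NRF1 OE. In BV- cells Clpp was at 60.1 and 62.1 CPM with Ctrl and 71.0, 92.1 and 88.1 with NRF1 OE. Clpp rose 1.37-fold in BV- (log2 0.45 ± 0.12 SE, edgeR adjusted p = 0.0383), a rise that was gone with the offsets (-0.0069), and it differed by 0.36 ± 0.14 in BV+ (adjusted p = 0.103; -0.06 with the offsets). Its unfoldase Clpx did not rise with it (-0.10 ± 0.17 in BV+ and -0.26 ± 0.15 in BV-), and the ratio of Clpp to Clpx in FPKM was 3.26 to 4.18 in the 4 Ctrl libraries and 4.44 to 8.78 in the 5 NRF1 OE libraries. With the offsets the pair did not part, Clpp being at -0.0069 and Clpx at -0.02 in BV-, and -0.06 and 0.07 in BV+, and the transcript GC content of Clpp is 57.8% against 44.6% for Clpx. Lonp1, the other soluble matrix protease, was at 177 and 179 CPM in BV+ Ctrl and 189.9 and 192 in BV+ NRF1 OE. In BV- cells Lonp1 was at 196 and 206 CPM with Ctrl and 219, 242 and 235 with NRF1 OE. Its groups did not overlap, but its differences of 0.10 ± 0.10 and 0.21 ± 0.09 did not pass (adjusted p = 0.50 and 0.123) and both turned negative with the offsets (-0.19 and -0.06).

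In the inner membrane, Yme1l1, the protease facing the intermembrane space, was at 182 and 202 CPM in BV+ Ctrl and 141 and 152 in BV+ NRF1 OE. In BV- cells Yme1l1 was at 212 and 173 CPM with Ctrl and 156, 76.0 and 124 with NRF1 OE. All 5 NRF1 OE libraries were below all 4 Ctrl libraries, with BV- NRF1 OE replicate 2 lowest. The difference of -0.69 ± 0.22 (log2, SE) in BV- was the most negative of the 39 genes without the offsets and missed the threshold (edgeR adjusted p = 0.0516), and that in BV+ was -0.39 ± 0.25 (adjusted p = 0.275). With the offsets the differences of Yme1l1 were -0.15 in BV- and -0.05 in BV+, beside -0.41 in both for Hspd1. Of the matrix-facing pair, Afg3l2 was lower in every NRF1 OE library of its population (-0.31 ± 0.12 and -0.12 ± 0.11) and its partner Spg7 had differences of 0.07 ± 0.11 and 0.23 ± 0.10, none of these passing. With the offsets Afg3l2 turned to 0.07 in BV-, at -0.21 in BV+, and Spg7 turned to -0.16 in BV+ and -0.02 in BV-. Oma1, the stress-activated protease, stayed at 19.4 and 21.2 CPM in BV+ Ctrl, 21.0 and 20.8 in BV+ NRF1 OE, 19.5 and 20.9 in BV- Ctrl, and 17.9, 20.4 and 20.6 in BV- NRF1 OE. Phb2, a subunit of the prohibitin ring that holds these proteases, rose 1.34-fold in BV- (0.42 ± 0.11, adjusted p = 0.0367), from 453 and 474 CPM to 546, 707 and 607, and differed by 0.32 ± 0.12 in BV+ (adjusted p = 0.104), with 0.15 and 0.10 once the offsets were used.

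**Figure D3:**
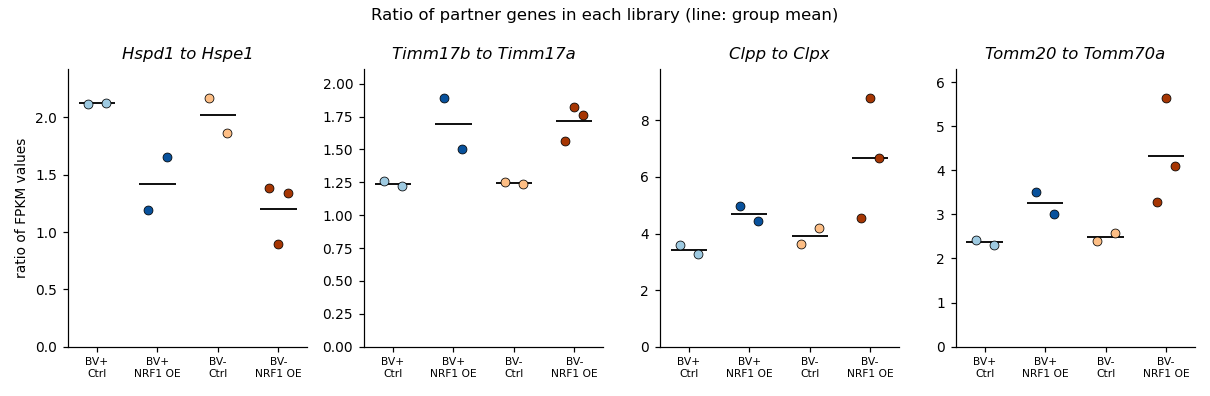
Ratio of FPKM values of 4 gene pairs in each of the 9 libraries, by group, with a line at each group mean. The pairs were chosen after their values were seen. In each panel the NRF1 OE libraries lie apart from the Ctrl libraries, lower for Hspd1 to Hspe1 and higher for the other pairs, on FPKM without the GC and length offsets. With the offsets the log2 fold changes of Clpp and Clpx in BV- were -0.0069 and -0.02, and those of Timm17b and Timm17a 0.37 and 0.62. Those of Hspd1 and Hspe1 were -0.41 and 0.37, and those of Tomm20 and Tomm70a 0.68 and 0.13.

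The sums show how uneven these changes were. The summed CPM of the 28 import genes was 3019 to 3120.2 in BV+ Ctrl and 3084 to 3100 in BV+ NRF1 OE, where the groups overlapped, and 3234 to 3352 in BV- Ctrl and 3459 to 3526 in BV- NRF1 OE. The 6 small TIMs alone summed to 153 to 154 in BV+ Ctrl and 183 to 224 in BV+ NRF1 OE, and to 164 to 178 and 211 to 240.0 in the BV- groups. In the TIM23 group, where Hspa9 is the most abundant member, the sums were lower with NRF1 OE in both populations (1232 to 1295 against 1073 to 1176 in BV+, and 1334 to 1355 against 1152 to 1270.1 in BV-). That sum follows Hspa9 and does not describe the group. Of its 10 genes, 6 had positive differences and 4 negative ones in each population, with a median of 0.11 in both. Over all 39 genes the sum was 5882 to 5994 CPM in BV+ Ctrl, 5634 to 5791 in BV+ NRF1 OE, 6360 to 6377 in BV- Ctrl and 6386 to 6514 in BV- NRF1 OE. These are bulk libraries, so fewer cells expressing a gene and less RNA of it per cell cannot be told apart.

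The dependence of the counts on transcript GC content moved with the groups. Over all genes tested, each gene's departure in a library from its 9-library mean was ranked against the GC content of its transcript. The Spearman correlation was -0.56 to -0.47 in the 4 Ctrl libraries, 0.01 and 0.31 in BV+ NRF1 OE, and 0.04, 0.67 and 0.53 in BV- NRF1 OE, highest in BV- NRF1 OE replicate 2, which was also the shallowest library. Among the 39 genes, the log2 fold change with NRF1 OE correlated with GC content at rho = 0.40 in BV+ and 0.60 in BV- (39 genes that share the same libraries), from Yme1l1 at 38.0% GC to Mtx1 at 61.7%. With offsets fitted across genes for the dependence on GC content and length within every library, these correlations were -0.39 and -0.24. Among the 39 genes the trend was thus turned and not removed, and whether the offsets overcorrect these genes was not tested. In that fit 9 of the 39 genes changed sign in each population, and the medians moved to 0.02 and 0.10. In BV- 9 genes were then higher (all 16662 genes of that fit, 4.48%) and 1 lower (all genes, 1.88%) at an adjusted p under 0.05. Of these Tomm20 (0.68), Tomm5 (0.44), Timm22 (0.52), Timm17b (0.37) and Hspd1 (-0.41) were also called in the same direction without the offsets. Tomm7 (0.52), Timm17a (0.62), Dnajc19 (0.73), Grpel1 (0.46) and Hspe1 (0.37) were called only with them. In BV+ 3 were higher (all genes, 7.05%) and 2 lower (all genes, 5.42%), with Timm8b (0.54) and Timm17b (0.47) called both ways. Tomm22 (0.39), Tomm34 (-0.30) and Hspd1 (-0.41) were called there only with the offsets. In BV- Tomm40 (0.10), Samm50 (0.28), Timm13 (0.24), Timm50 (0.12), Timm21 (-0.14), Hspa9 (-0.23) and Phb2 (0.15) kept their sign with smaller differences that no longer passed, and Clpp (-0.0069) and Mtx1 (-0.05) turned. Of the genes not called in BV-, Tomm70a changed sign (0.13), Timm10 came to -0.01 and Yme1l1 to -0.15. What part GC content had in the differences was not tested beyond these offsets.

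**Figure D4:**
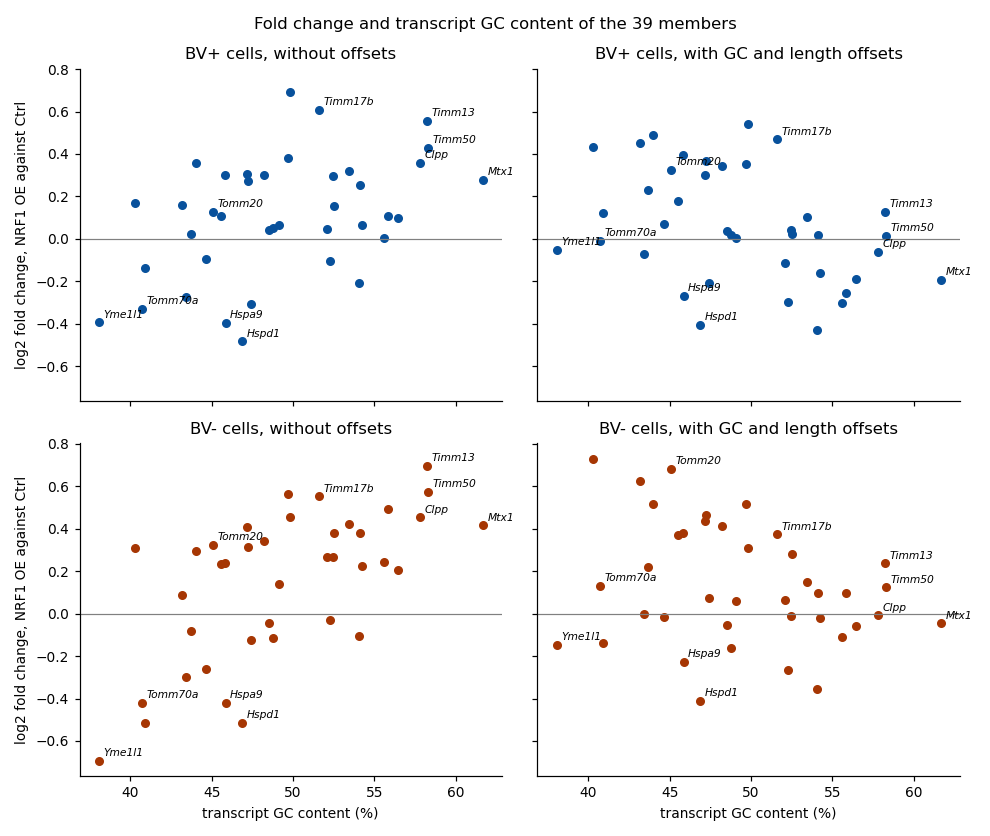
Log2 fold change with NRF1 OE against Ctrl plotted over transcript GC content (percent) for the 39 genes, in BV+ cells (top) and BV- cells (bottom), without (left) and with (right) the GC and length offsets. The points rise from left to right without the offsets (rho = 0.40 and 0.60) and fall with them (rho = -0.39 and -0.24), while Hspd1 stays below and Timm17b above 0.

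Between the sorts, most of the 39 differences of BV+ against BV- cells were small and negative. With Ctrl, 35 of the 39 differences were negative and the median was -0.12 on the log2 scale, beside -0.01 over all genes. No gene passed at an adjusted p under 0.05 in edgeR or in DESeq2 (all genes, 1.10% higher and 0.0237% lower), 2 had an unadjusted p under 0.05, both with a negative difference (all genes, 5.98% positive and 1.79% negative), and 0 met the study's rule (all genes, 5.74%). Of the 39, 24 were lower in both BV+ Ctrl libraries than in both BV- Ctrl libraries and 0 were higher in both (all genes, 25.4% and 22.6%). Timm10 was the lowest (-0.44 ± 0.13 SE, edgeR adjusted p = 0.192), at 15.7 CPM in both BV+ Ctrl libraries and at 21.0 and 21.7 in BV- Ctrl. Tomm5 (-0.27 ± 0.12) and Tomm40 (-0.24 ± 0.12) followed, while the highest 3, Mtx1 (0.04), Pam16 (0.01) and Oma1 (0.01), did not depart from 0 by more than their SE of 0.14, 0.26 and 0.14.

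With NRF1 OE the same comparison had 32 negative differences and a median of -0.20, beside -0.0049 over all genes. Timm10 (-0.42 ± 0.12 SE, edgeR adjusted p = 0.0352), Tomm34 (-0.36 ± 0.10, 0.0364), Tomm5 (-0.37 ± 0.11, 0.0459) and Tomm40 (-0.37 ± 0.11, 0.0461) were lower in BV+ cells. That is 4 of 39 genes lower (10.3%, against 3.85% of all genes) and 0 higher (against 9.90%), with the same numbers of calls by DESeq2. At an unadjusted p under 0.05 there were 15 negative differences (all genes, 12.3%) and 0 positive ones (all genes, 15.9%). The study's rule was met by 0 of the 39 (all genes, 14.7%), and 20 were lower and 2 higher in both BV+ NRF1 OE libraries than in all BV- NRF1 OE libraries (all genes, 19.5% and 20.3%). Tomm6 and Timm50 were as low (-0.45 ± 0.23 and -0.38 ± 0.14) without passing, and Timm21, Yme1l1 and Timm8b had the highest differences (0.31 ± 0.15, 0.30 ± 0.22 and 0.12 ± 0.15). The 4 calls became 12 without BV- NRF1 OE replicate 1, 1 without BV- NRF1 OE replicate 2 and 0 without any other 1 of the 9 libraries, and with the offsets for GC content and length 14 genes were lower (all genes of that fit, 15.9%) and 0 higher (all genes, 10.9%). The sorts share the control and NRF1 OE libraries with the comparisons above, so these values are not independent of them.

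**Figure D5:**
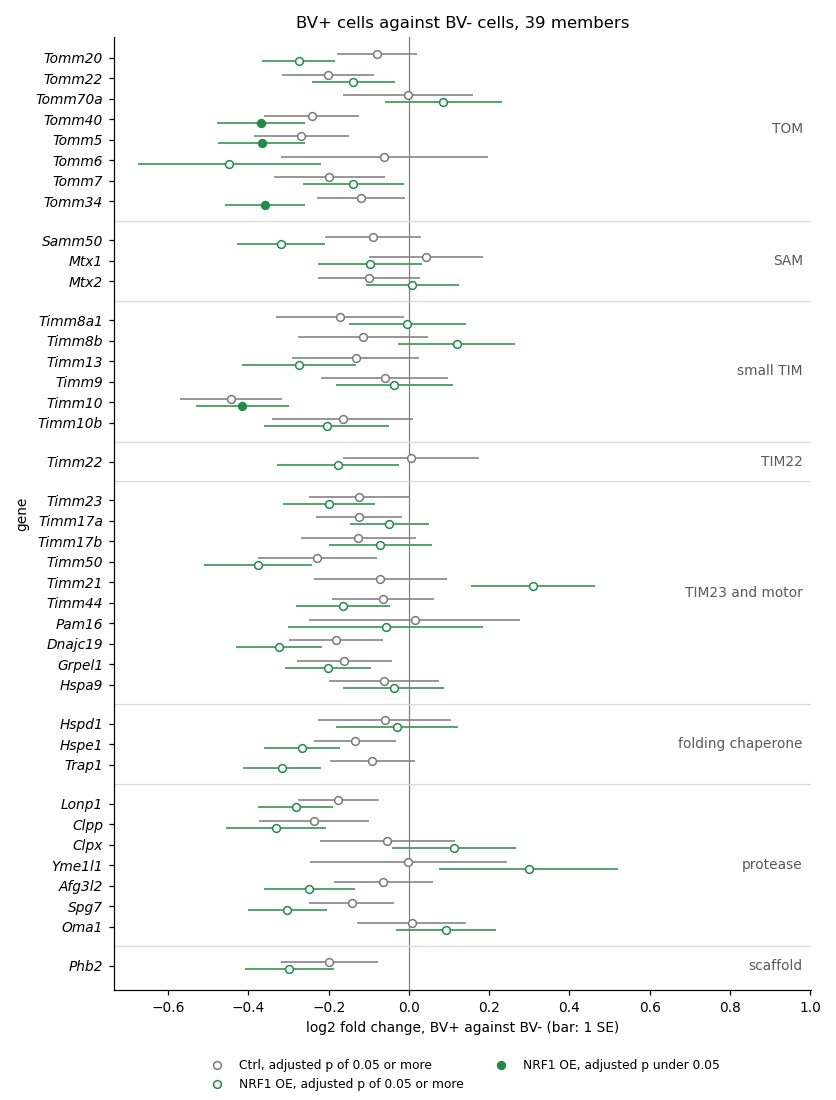
Log2 fold change of BV+ cells against BV- cells for the 39 genes, grouped by complex, with Ctrl (grey) and with NRF1 OE (green), bars of 1 SE and filled points for adjusted p under 0.05. Most points lie left of 0, and Tomm40, Tomm5, Tomm34 and Timm10 are filled with NRF1 OE.

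The effect of NRF1 OE was not shown to differ between the sorts for any of the 39 genes. In the interaction term 0 genes passed in edgeR or DESeq2 and 0 had an unadjusted p under 0.05 in edgeR (all genes, 0% at an adjusted p under 0.05 and 5.51% at an unadjusted one). The differences of effect, BV+ minus BV-, ran from -0.39 ± 0.34 (SE) in Tomm6 to 0.38 ± 0.23 in Timm21, with a median of -0.07 (0.02 over all genes).

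Per length, the order of levels was steep. Hspd1 (256 to 499 FPKM over the 9 libraries), Hspe1 (217 to 286) and Hspa9 (127 to 203) led, followed by Phb2 (109 to 188), Trap1 (98.8 to 135), Tomm5 (80.4 to 128), Tomm20 (85.9 to 119) and Timm8b (73.5 to 136), whose ranges overlap. The channels themselves were lower: Tomm40 was at 44.7 to 73.3 FPKM, Samm50 at 33.6 to 50.8, Timm23 at 12.6 to 15.2 and Timm22 at 8.07 to 14.5. Timm9, Timm21, Tomm6, Timm10b and Pam16 were at the bottom, between 1.25 and 5.88 FPKM. Exons of Timm9, Tomm6, Timm10b and Pam16 overlap those of other genes, and what this did to their values was not tested.

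Other genes of the pathway were followed as lists, whose counts stand beside 6.24% of all genes that rose and 1.78% that fell in BV+, and 10.2% and 6.98% in BV-. Of 23 tested genes for further import, oxidative folding, presequence cleavage and insertion, 2 rose and 0 fell with NRF1 OE in BV+ and 4 rose and 1 fell in BV-. Romo1, a small inner membrane protein, rose in both populations (0.78 ± 0.15 SE and 0.48 ± 0.14), Gfer, the oxidase that recharges the intermembrane space import pathway, rose in BV- (0.42 ± 0.12), and Mtx3, a metaxin homolog, fell in BV- (-0.86 ± 0.21). Of 13 further proteases and quality control genes, 1 rose in BV+ and 4 in BV-, and 0 fell in either, with Phb, the partner of Phb2 in the prohibitin ring, at 0.47 ± 0.11 and the disaggregase Clpb at 0.47 ± 0.12 in BV-. Of the 8 MICOS genes, which shape the cristae, Micos13 rose in BV+ (0.64 ± 0.15) and Chchd6 in BV- (0.72 ± 0.16). Of 9 tested factors of the mitochondrial stress response, Asns (0.38 ± 0.10) and Dele1 (0.39 ± 0.12) rose in BV- and 0 passed in BV+, where 3 had an unadjusted p under 0.05, all positive (all genes, 20.3%). Of 12 cytosolic chaperones, Dnajb1 rose (0.42 ± 0.10) and Hsph1 (-0.54 ± 0.16) and Hspa4 (-0.44 ± 0.14) fell in BV-, and 0 passed in BV+, where 2 had an unadjusted p under 0.05. Between the sorts with Ctrl none of these 5 lists had a call (all genes, 1.10% higher and 0.0237% lower). With NRF1 OE Chchd4, Clpb, Afg3l1, Asns and Dnajb1 were lower in BV+ by 0.35 to 0.45, and 0 genes were higher. By list, in the order above, the lower genes were 1 of 23, 2 of 13, 0 of 8, 1 of 9 and 1 of 12 (all genes, 3.85% lower and 9.90% higher).

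Some markers of cell types moved with NRF1 OE beside these genes, to be read against the same shares of all genes (6.24% higher and 1.78% lower in BV+, 10.2% and 6.98% in BV-). Of 8 PGC markers 2 rose in BV+ (Dppa3, 0.64 ± 0.14 SE, and Itgb3, 1.02 ± 0.15) and 5 rose in BV- (among them Dppa3, 0.84 ± 0.13, and Nanos3, 1.02 ± 0.19), and their summed level was 370.1 to 376 CPM in BV+ Ctrl, 408 to 410 in BV+ NRF1 OE, 387 to 394 in BV- Ctrl and 454 to 547 in BV- NRF1 OE. Of 8 naive pluripotency markers Klf4 and Zfp42 fell in BV+ (-0.67 and -0.67), and 2 rose and 3 fell in BV-. Of 5 tested mesoderm markers 1 rose in BV+ (Kdr, 1.49 ± 0.23) and 0 passed in BV-, their sum being 15.9 to 18.9 CPM in BV+ Ctrl, 27.0 to 37.6 in BV+ NRF1 OE and 7.94 to 10.3 over the 5 BV- libraries. Of 7 tested neuroectoderm markers 1 rose in BV+ (Nes, 1.60 ± 0.27) and 0 passed in BV-, and of 8 endoderm markers 0 passed in BV+ and Gata6 fell in BV- (-1.08 ± 0.31). The part of cell makeup in the differences of the 39 genes was not tested.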

How the data were processed

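Poly(A) RNA from the 9 sorted populations was sequenced by the authors. Per the submitters' processing notes and the study's methods, reads were mapped with HISAT2 (2.0.1) to GRCm39 and counted per gene with HTSeq (0.6.1). The deposited files hold raw counts and FPKM values per gene and library, both computed by the authors. Whether counting used strand is not given in the sources used here, and exons of 18 of the 39 genes overlap another gene's. Among the genes called with NRF1 OE these are Timm8b, Timm17b, Timm13, Tomm40, Samm50, Mtx1, Phb2 and Hspd1.

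The 39 genes and all gene lists were chosen with earlier results of these data known. Samples were grouped by the labels. Counts were filtered with edgeR's filterByExpr (16903 of 56691 genes kept), scaled by TMM and fitted in R 4.3.3 with edgeR 4.0.16 quasi-likelihood over all 4 groups, adjusting p over all genes (Benjamini-Hochberg, threshold 0.05). NRF1 OE was compared with Ctrl in each population, BV+ with BV- under each vector, and the effects with each other. The study's rule was also applied. FPKM served only to compare levels between genes. GC content and length were those of the longest GENCODE transcript of each gene and entered the offsets for 16662 genes. The script was tested on simulated counts. Values per library were given for 15 genes fixed by role (Tomm20, Tomm22, Tomm40, Tomm70a, Samm50, Timm10, Timm22, Timm23, Timm44, Hspa9, Hspd1, Hspe1, Lonp1, Clpp and Yme1l1) and for the 3 highest and 3 lowest log2 fold changes in each comparison of 2 groups. Genes called with NRF1 OE were named. The genes of other lists were named by the smallest p, at most 4 per list. Values of other genes, the 4 ratios and the windows shown were chosen after they were seen. The alternatives were DESeq2 1.42.0, other scaling factors, other filters on low counts, the GC and length offsets, the replicate number as a block, fits of the compared groups alone, and leaving out each library.

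Whether the same replicate number marks paired libraries is not given in the labels. The deviations of same-numbered libraries from their group means correlated at -0.42 to 0.35. They were positive between BV- NRF1 OE and BV- Ctrl (0.31 and 0.35) and negative for the other same-numbered pairs. In a group of 2 libraries the deviations mirror each other, so these correlations cannot decide on pairing. Total counts were 13702162 to 19625460 per library.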

Additional observations from a re-analysis of the deposited data

How the results depend on the processing

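The alternatives changed which genes were called more than they changed directions. Across the settings that kept all libraries, 499 log2 fold changes of named genes kept their direction and side of the threshold, 75 no longer passed, 30 newly passed and 24 changed sign; with a library left out the numbers were 419, 120, 21 and 7. In BV+ cells the 2 genes called with NRF1 OE became 6 with no filter, 5 with GC and length offsets and 9 with only the groups compared. In BV- cells the 14 became 0 with only the groups compared, and 17 with DESeq2. Between the sorts with Ctrl 2 were called with only the groups compared. With NRF1 OE the 4 became 2 with library size alone, 1 with no filter, 2 with a mean of at least 10 counts, 14 with GC and length offsets and 0 with only the groups compared. The median of the 39 genes moved with the offsets to 0.024 in BV+ and 0.096 in BV-. The cause of these changes was not tested.

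Whether the replicate numbers pair the libraries was not settled. With the number as a block, 0 of the 39 genes were called with NRF1 OE in BV+, 0 in BV- and 0 between the sorts with NRF1 OE; with the block and the offsets together 1 was called in BV+ and 0 in BV-, with medians of 0.024 and 0.067. Crossing the numbers of the BV- Ctrl libraries, an alternative chosen after seeing the data because the Ctrl pairs correlated at -0.15, called 9 genes between the sorts with Ctrl.

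Among the genes chosen by the naming rule, signs turned with the offsets, and with the offsets and the block, in BV+ for Clpp (-0.062 and -0.063), Lonp1 (-0.19 and -0.19), Mtx1 (-0.19 and -0.19) and Timm21 (0.12 and 0.12). In BV- they turned for Clpp (-0.0069 and -0.075), Lonp1 (-0.057 and -0.049), Mtx1 (-0.045 and -0.067), Timm10 (-0.012 and -0.062) and Tomm70a (0.13 and 0.15). With the offsets, signs turned as well in BV+ for Clpx, Spg7, Trap1, Tomm34 and Tomm6 and in BV- for Afg3l2, Spg7, Tomm34 and Mtx2. Between the sorts with Ctrl, Oma1 and Pam16, both near 0, turned with DESeq2 (-0.00993 and -0.00126), DESeq2 size factors (-0.0101 and -0.00157) and a mean of at least 10 counts (-0.0143 and -0.00611).

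Leaving out 1 library at a time, 0 to 12 of the 39 genes were called with NRF1 OE in BV+, 0 to 24 in BV-, 0 to 0 between the sorts with Ctrl, 0 to 12 with NRF1 OE, and 0 to 0 for the difference of effects. The medians ranged from 0.08 to 0.16, 0.19 to 0.28, -0.16 to -0.09, -0.26 to -0.12 and -0.10 to -0.0076 in the same order. Between the sorts with Ctrl, Mtx1 ranged from -0.015 to 0.083, Oma1 from -0.059 to 0.067 and Pam16 from -0.28 to 0.38; Timm8b between the sorts with NRF1 OE ranged from -0.13 to 0.33, and Timm23 with NRF1 OE in BV+ from -0.0103 to 0.14.

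Over all genes, the difference of effects had 0 calls in edgeR, 23 in DESeq2, 108 with no filter and 1 with the offsets and the block. Tomm6, Pam16 and Timm10b had the lowest mean CPM of the 39 genes, and so the largest relative counting error.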
